A study of Rattus norvegicus with 6 samples.

Results

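The complement genes described here are C1qa, C1qb, C1qc, C1s, C2, C3, C3ar1, C5ar1 and Serping1, chosen by their symbols in the deposited gene table. They make up 9 of its 43350 gene rows, and where a symbol had several rows the protein-coding row was taken first and then the row with the most reads. RNA was sequenced from dorsal root ganglia (DRG), the clusters of sensory nerve cell bodies beside the spinal cord, of male Sprague-Dawley rats 11 days after surgery. The CCI group (chronic constriction injury, 3 rats) had loose ligatures placed around the left sciatic nerve, and the sham group (3 rats) had that nerve exposed but not tied. The rats were 6–8 weeks old when bought and were kept for 2–3 weeks before surgery, and the L4–6 ganglia of the operated side of 1 rat made up a sample. Rats were taken into the RNA work only if their pain behaviour fitted their group, per the study's methods. The sample labels enter "none" as the sham treatment and their library protocol speaks of pooled samples, whereas the methods describe a sham operation and single animals, and the latter was followed here.

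Complement is a cascade of plasma and tissue proteins that marks targets for removal and calls in immune cells. C1q, built from the products of C1qa, C1qb and C1qc, recognises a target and carries the proteases C1r and C1s, which cut C4 and C2 to form an enzyme that splits C3. The C3 fragments coat the target, small fragments of C3 and C5 signal through the receptors C3aR (C3ar1) and C5aR1 (C5ar1), and C1 inhibitor (Serping1) blocks C1r and C1s. In nervous tissue macrophages and microglia are known as a main source of C1q, and C1q and C3 are known for tagging synapses and debris for uptake by phagocytes.

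The counts summed to between 75423546 and 87615743 per library, so that 3 counts, taken as the detection limit, equalled 0.0342 to 0.0398 CPM, a read count divided by the size of its library. All 9 genes lay above that limit in every library, the lowest count being 143 reads of C3ar1 in sham 3. Levels are given as CPM after edgeR's TMM scaling, or, for comparisons between genes, as the deposited FPKM, which corrects for row length. Tests were edgeR's quasi-likelihood tests over 26663 rows, those whose FPKM averaged 0.5 or more. A gene is called higher or lower where the log2 fold change (CCI over sham) was at least 0.58 in size and the unadjusted p was under 0.05, the study's own limits. The adjusted p is the Benjamini-Hochberg value over all tested rows. With 3 rats in each group the smallest p of an exact permutation test is 0.1.

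Sensory neuron, satellite glia and Schwann cell markers, which define a DRG, were abundant in all libraries. The summed FPKM of 9 sensory neuron markers was 3458 to 3620 in the CCI and 3884 to 4270 in the sham libraries. A pair of libraries stood apart. Sham 1 had summed skeletal muscle markers of 123 FPKM, against 4.13 to 17.9 in the other libraries, together with the highest erythrocyte and neutrophil marker sums. CCI 1 had the lowest fibroblast marker sum, 276 FPKM against 407 to 480 elsewhere. The fold changes and calls below were therefore also computed without both libraries, a setting chosen after the data were seen.

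The start regions of C1qa, C1qb and C3 are shown because these genes were higher in the CCI group and the RefSeq promoter table (build GRCr8) holds them. It held 4 of the 9 genes in all. Each sequence runs 5′ to 3′ on the gene's own strand from 250 bases before to 50 bases after the annotated start, and capitals mark the matches, on either strand, to the motifs named after them.

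C1qa, chr5:154419884-154420183, minus strand: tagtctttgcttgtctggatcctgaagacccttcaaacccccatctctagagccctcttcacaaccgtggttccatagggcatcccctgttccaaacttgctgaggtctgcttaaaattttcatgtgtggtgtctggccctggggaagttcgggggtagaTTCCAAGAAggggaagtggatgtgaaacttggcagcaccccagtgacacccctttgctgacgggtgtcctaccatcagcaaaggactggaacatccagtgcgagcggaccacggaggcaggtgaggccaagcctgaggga

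C1qb, chr5:154407778-154408077, minus strand: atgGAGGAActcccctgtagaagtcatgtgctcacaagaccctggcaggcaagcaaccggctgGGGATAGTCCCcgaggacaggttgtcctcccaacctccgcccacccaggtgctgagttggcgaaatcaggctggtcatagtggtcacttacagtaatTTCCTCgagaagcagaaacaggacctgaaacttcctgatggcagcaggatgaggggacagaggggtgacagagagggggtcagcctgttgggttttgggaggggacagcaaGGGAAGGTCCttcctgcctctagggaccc

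C3, chr9:2201290-2201589, minus strand: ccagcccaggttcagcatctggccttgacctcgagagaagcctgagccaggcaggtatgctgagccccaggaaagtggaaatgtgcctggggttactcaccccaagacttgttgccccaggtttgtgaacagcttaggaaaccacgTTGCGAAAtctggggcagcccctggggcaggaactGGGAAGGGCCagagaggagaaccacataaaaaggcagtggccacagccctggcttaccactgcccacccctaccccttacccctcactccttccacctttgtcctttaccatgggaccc

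C1qa holds 1 match to TTCNNNGAA, the core of STAT motifs, which 8.87% of all 33469 promoters of this length contain. C1qb holds 2 matches to GAGGAA, the PU.1 core found in 27.6% of promoters, and 3 to an NF-kappaB form (GGGA, then any 4 bases, then CC) found in 19.3%, of which 2 overlap on opposite strands. C3 holds 1 match to the same NF-kappaB form and 1 to TTGCNNAA, a C/EBP form found in 10.6% of promoters. The C3ar1 promoter, chr4:157756481-157756780, holds no match to any motif searched. The combined PU.1 and IRF motif, the IRF motif and the TATA box (TATAAA) were found in none of the 4, and occur in 2.94%, 3.92% and 14.2% of promoters. No motif was shared by C1qa and C1qb.

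C1qa, C1qb, C1qc and C3 were each about 2-fold higher in the CCI group, whereas C1s, C2, C3ar1, C5ar1 and Serping1 did not pass the limits. Of the 9 genes, 4 were called higher and 0 lower, where 2.57% of all tested rows were called higher and 1.26% lower. In 6 of 9, namely the 3 C1q genes, C3, C3ar1 and C5ar1, every CCI library lay above every sham library, against 8.63% of all tested rows, and in 0 of 9 was the order the opposite, against 8.7%. The median log2 fold change of the 9 genes was 0.44, and that of all tested rows 0.0055. At an adjusted p under 0.05, edgeR called 0 of the 9, against 0.0638% of tested rows higher and 0.03% lower, while the unadjusted p was under 0.05 for 4, against 10.7% of tested rows in either direction. DESeq2 called those 4 at an adjusted p under 0.05, against 1.62% of rows higher by that test. In whole tissue, more cells of a type and more RNA per cell cannot be told apart.

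**Figure D1:**
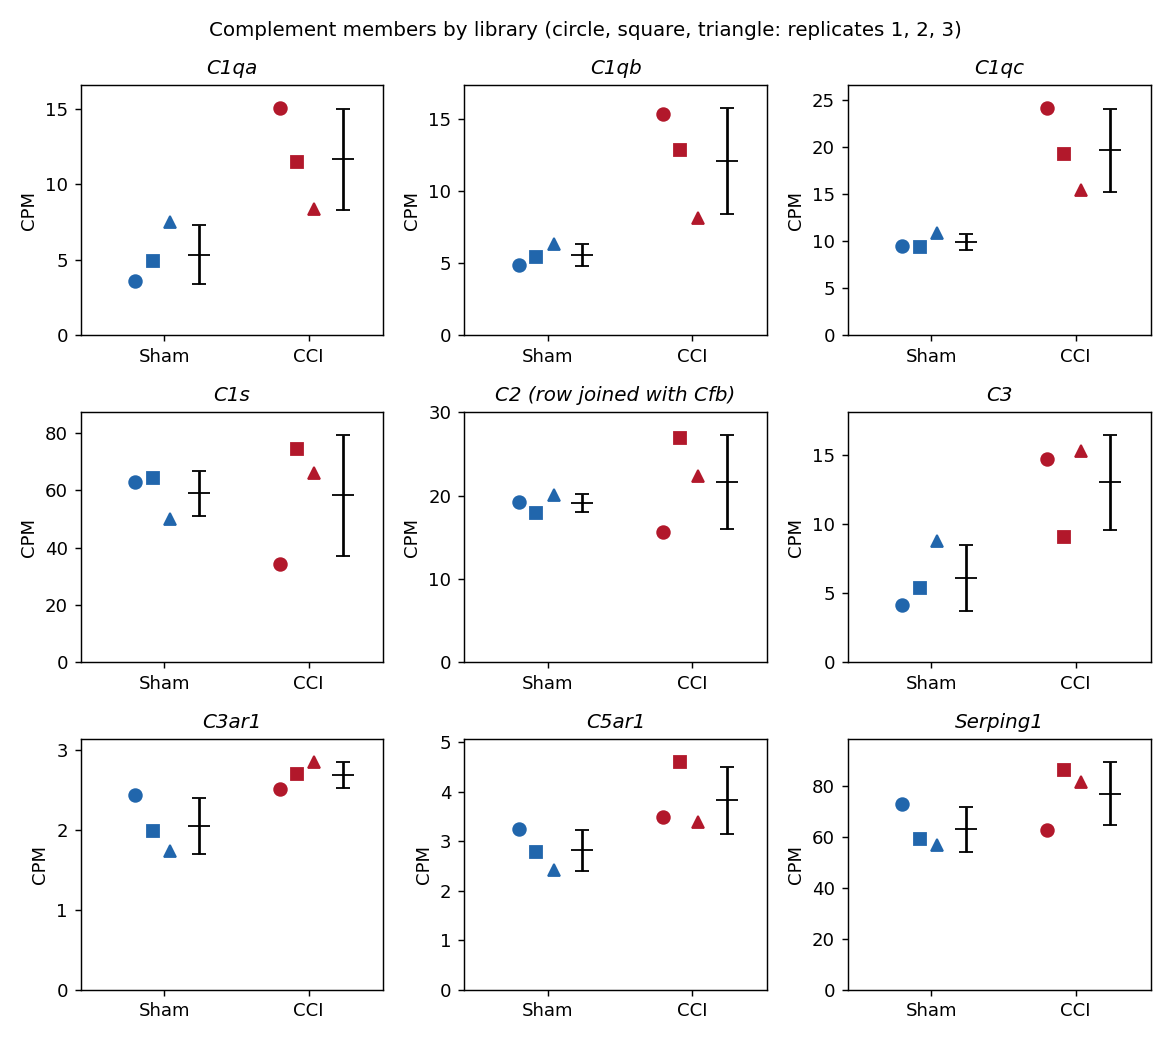
CPM of each complement gene (y axis, from 0) in the sham (blue) and CCI (red) libraries, with circle, square and triangle for replicates 1, 2 and 3 and the mean ± SD (n = 3) beside them in black. The CCI points of C1qa, C1qb, C1qc and C3 lie above all sham points, while those of C1s, C2 and Serping1 overlap them and CCI 1 is the lowest CCI point in these 3.

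C1qc, which encodes the C chain of C1q, had the smallest SE of the trio. It was at 24.2, 19.2 and 15.5 CPM in CCI 1, 2 and 3 and at 9.45, 9.41 and 10.9 CPM in sham 1, 2 and 3. The sham libraries differed little and all CCI libraries were clearly above them, CCI 1 being the highest. Its level was 19.6 ± 4.36 CPM against 9.91 ± 0.835 CPM (SD, n = 3 each). Its log2 fold change was 0.98 (SE 0.17, 95% interval 0.57 to 1.40), with unadjusted p = 0.000922 and adjusted p = 0.124.

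C1qb, the B chain, was at 15.4, 12.9 and 8.14 CPM in the CCI libraries and at 4.89, 5.44 and 6.37 CPM in the sham libraries. CCI 3 was the lowest of its group and still above sham 3. Its log2 fold change was 1.12 (SE 0.25, 95% interval 0.53 to 1.72), with unadjusted p = 0.00317 and adjusted p = 0.199. C1qa, the A chain, was at 15.1, 11.5 and 8.36 CPM in the CCI libraries and at 3.61, 4.92 and 7.47 CPM in the sham libraries. Here the gap between CCI 3 and sham 3 was the narrowest of the trio. This gave C1qa a log2 fold change of 1.13 (SE 0.32, 95% interval 0.35 to 1.90), with unadjusted p = 0.0114 and adjusted p = 0.296.

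All 3 genes had the same order of libraries within the CCI group, CCI 1 above CCI 2 above CCI 3, and sham 3 was the highest sham library in each. C1qa stood at 92.3% to 106% of C1qb (FPKM) in the CCI and 76.3% to 121% in the sham libraries, and C1qc at 148% to 189% and 170% to 192%. The log2 differences of these ratios between the groups were 0.07 and −0.12 (exact two-sided permutation p = 0.8 and p = 0.4).

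The 3 rows lie side by side on the minus strand of chromosome 5 in the rat genome the authors call V101, C1qb at 155246447–155252003, C1qc at 155255005–155258392 and C1qa at 155261250–155264143. They span 17697 bases with gaps of 3001 and 2857 bases. The nearest tested protein-coding rows on either side were not called. Ephb2, a receptor for ephrin ligands, had a log2 fold change of 0.27 (unadjusted p = 0.0626), and Zbtb40, a zinc finger gene, −0.01 (unadjusted p = 0.916). A second, short non-coding row named Zbtb40 inside the first (155349589–155350052) had 122, 60 and 83 reads in the CCI and 66, 35 and 45 in the sham libraries, which overlap, and was called higher with a log2 fold change of 0.94 (unadjusted p = 0.0401). Epha8, which lies between C1qa and Zbtb40, was below the expression filter.

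**Figure D2:**
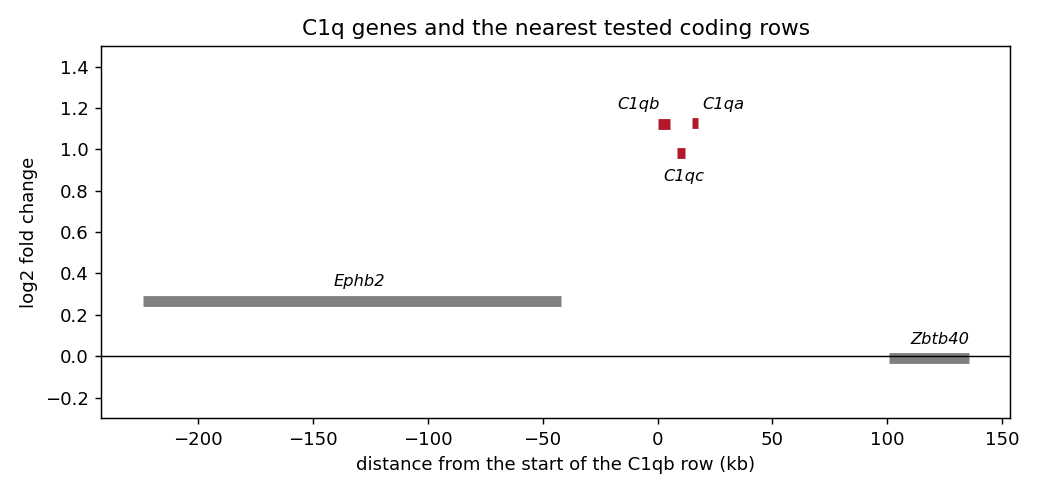
Log2 fold change of CCI over sham (y axis) for the C1q genes (red) and the nearest tested protein-coding rows (grey), drawn to scale by distance from the start of the C1qb row in kb (x axis). The C1q genes sit at 0.98 to 1.13, Ephb2 at 0.27 and Zbtb40 at −0.01.

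C1r, C1s, C4a, C4b and C2, which act between C1q and C3 in the classical pathway, were not called. C1s, the protease that cuts C4 and C2, was at 34.3, 74.2 and 65.8 CPM in the CCI libraries and at 62.7, 64.1 and 49.8 CPM in the sham libraries. CCI 1 was below and the other CCI libraries above all sham libraries. Its log2 fold change was −0.02 (95% interval −0.69 to 0.65, unadjusted p = 0.949), and 0.25 without CCI 1. The row assigned to C1s spans 427257 bases of chromosome 4 (156728353–157155609) and overlaps 14 other rows, among them Clstn3 and Cd163, so its count may hold reads of those rows, and the RefSeq table lists a pseudogene, C1s-ps1, whose reads were not separated here. A second, non-coding row named C1s held 384 to 581 reads per library and had a log2 fold change of −0.02.

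C1r, which activates C1s, was at 40.9, 59.6 and 46.3 CPM against 52.1, 50.9 and 48.6 CPM in the sham libraries, with overlapping groups. C1r had a log2 fold change of −0.05 (95% interval −0.38 to 0.28). C4b, one of the near-identical C4 genes, was at 52.9, 58.8 and 46.0 CPM against 54.0, 51.9 and 51.2 CPM, with a log2 fold change of 0.01 (95% interval −0.22 to 0.24). The other copy, C4a, was at 5.43 CPM in CCI 1 but at 25.8 and 26.0 CPM in CCI 2 and 3, and at 18.6, 19.8 and 19.2 CPM in the sham libraries. Its log2 fold change was −0.01 (95% interval −1.27 to 1.25), and 0.43 (unadjusted p = 0.00148) without CCI 1. Reads of the C4 copies may have been divided between them in counting, so both values are uncertain.

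C2, the other part of the C3-splitting enzyme, shares a row with Cfb (chromosome 20, 4536203–4561491), its counterpart in the alternative pathway, and their reads cannot be told apart. The row was at 15.7, 26.9 and 22.4 CPM in the CCI and at 19.3, 17.9 and 20.04 CPM in the sham libraries. CCI 1 was below and CCI 2 and 3 above all sham libraries. The row's log2 fold change was 0.18 (95% interval −0.28 to 0.64, unadjusted p = 0.374). Without CCI 1 it was 0.37 with unadjusted p = 0.0173, which does not reach the fold limit, and without CCI 2 it was −0.0031.

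Relative to C1r and C4b, C1q was higher in every CCI library than in any sham library. The mean FPKM of the C1q chains was 115%, 62.7% and 59.2% of C1r in CCI 1, 2 and 3 and 29.4%, 33.3% and 43.6% in sham 1, 2 and 3. This amounted to a log2 difference of 1.11 (exact two-sided permutation p = 0.1, the smallest possible, and 0.275 after adjustment over 33 such ratios). Against C1s the shares were 170%, 62.5% and 51.6% in the CCI and 30.3%, 32.8% and 52.9% in the sham libraries, which overlap (log2 difference 1.13, exact p = 0.2). Against C4b the log2 difference was 1.04 (exact p = 0.1), a value that is uncertain because the C4b row is joined with LOC103689965 and spans 205871 bases of chromosome 20. Against Serping1 the shares were 50.8%, 29.5% and 22.8% in the CCI and 14.3%, 19.5% and 25.4% in the sham libraries, which overlap (log2 difference 0.76, exact p = 0.2).

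In the list of other classical and lectin pathway genes, 11 of 13 names were found, 8 were tested, and 0 were called in either direction. These included Masp1 and Masp2, proteases of the lectin pathway, and the pattern-recognising lectins Colec11, Colec12 and Fcnb. Mbl1, a mannose-binding lectin, had no read in any library.

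C3, on which all routes of activation converge, was called higher like C1q. It was at 14.7, 9.09 and 15.3 CPM in CCI 1, 2 and 3 and at 4.15, 5.39 and 8.82 CPM in sham 1, 2 and 3. The lowest CCI library, CCI 2, was only just above the highest sham library, sham 3. Its level was 13.0 ± 3.44 CPM against 6.12 ± 2.42 CPM (SD, n = 3 each). C3 had a log2 fold change of 1.09 (SE 0.33, 95% interval 0.31 to 1.88), with unadjusted p = 0.014 and adjusted p = 0.317. Within the CCI group C3 differed from the C1q genes in its order of libraries, since CCI 3 was its highest CCI library and the lowest for each C1q gene. Within the sham group its order was that of C1qa and C1qb. The C3 row lies on chromosome 9 at 9721105–9747167. Cfp (properdin, which stabilises the alternative C3 enzyme) and Cfd (factor D, which cuts factor B) were not called, with log2 fold changes of 0.09 and −0.05.

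For the receptors of the C3 and C5 fragments every CCI library lay above every sham library, but neither was called. C3ar1 was at 2.51, 2.69 and 2.84 CPM in the CCI and at 2.43, 1.98 and 1.73 CPM in the sham libraries. CCI 1 and sham 1 nearly touched. Its log2 fold change was 0.39 (95% interval −0.06 to 0.84, unadjusted p = 0.0806, adjusted p = 0.542). C5ar1 was at 3.49, 4.60 and 3.39 CPM in the CCI and at 3.25, 2.79 and 2.42 CPM in the sham libraries. CCI 3 lay just above sham 1. For C5ar1 the log2 fold change was 0.44 (95% interval −0.03 to 0.92, unadjusted p = 0.0641, adjusted p = 0.503). Without CCI 1 and sham 1 together the values were 0.58 for C3ar1 (unadjusted p = 0.0517) and 0.62 for C5ar1 (unadjusted p = 0.0571), also uncalled. C3ar1 lies on chromosome 4 at 155684029–155690869 and C5ar1 on chromosome 1 at 78186776–78195328.

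Of the other complement receptors, 10 of 10 names were found and 8 were tested. Of these, 2 were called higher and 0 lower, against 2.57% and 1.26% of all tested rows. Itgb2, the beta chain shared by complement receptors 3 and 4, was at 5.93, 7.41 and 3.05 CPM in the CCI and at 3.02, 1.94 and 2.87 CPM in the sham libraries. CCI 3 was almost level with sham 1. Itgb2 had a log2 fold change of 1.06 (SE 0.35, unadjusted p = 0.0215, adjusted p = 0.360). The call was lost without CCI 1 (1.002, unadjusted p = 0.0547), without CCI 2 (0.78, unadjusted p = 0.0737) and without sham 2 (0.89, unadjusted p = 0.0675), and also without CCI 1 and sham 1 together (1.12, unadjusted p = 0.0784). Itgax, the alpha chain of complement receptor 4, was at 2.99, 5.25 and 2.85 CPM against 2.26, 1.44 and 2.57 CPM, with a log2 fold change of 0.82 (SE 0.33, unadjusted p = 0.0434, adjusted p = 0.446). That call was lost without CCI 2 (0.49), sham 1 (unadjusted p = 0.0762) or sham 2 (unadjusted p = 0.115), and without CCI 1 and sham 1 together (unadjusted p = 0.0764). Itgax averaged 0.723 FPKM in the CCI and 0.402 FPKM in the sham group. It therefore passed the filter of 0.5 FPKM only through the group where it was high, and its call adds little to the count of receptors called. Itgam, the alpha chain of complement receptor 3, had a log2 fold change of 0.33 (unadjusted p = 0.144). The Itgam row (chromosome 1, 199495298–199623960) contains the Itgax row (199555722–199576932) on the same strand. Reads of one may have been counted in the other, so both values are uncertain. The C1q-binding proteins Cd93, C1qbp and Calr had log2 fold changes of 0.02, −0.0036 and 0.0059.

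Serping1, the inhibitor of C1r and C1s, had the highest FPKM of the 9 genes in both groups. It was at 62.9, 86.5 and 81.8 CPM in the CCI and at 73.2, 59.3 and 56.9 CPM in the sham libraries. The groups overlapped because CCI 1 lay below sham 1. Serping1 had a log2 fold change of 0.29 (95% interval −0.07 to 0.65, unadjusted p = 0.0964, adjusted p = 0.574). Without CCI 1 it was 0.42 (unadjusted p = 0.0157) and without both CCI 1 and sham 1 it was 0.53 (unadjusted p = 0.00082), still under the fold limit. The row lies on chromosome 3 at 72161189–72171078.

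Among other regulators, 18 of 20 names were found and 12 were tested. By edgeR 0 were called in either direction, while 6 (Cfi, Cd59, Csmd2, Cd55, Csmd1 and Susd4) had an unadjusted p under 0.05, which 10.7% of all tested rows had in either direction. Cfi, the protease that inactivates C3b and C4b, had a log2 fold change of 0.44 (unadjusted p = 0.0343), and its groups did not overlap.

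Cd59, the membrane protein that blocks the lytic pore, was at 426, 413 and 390 CPM in the CCI and at 340, 358 and 326 CPM in the sham libraries. Its groups did not overlap, and the log2 fold change was 0.26 (unadjusted p = 0.00363). In the other direction, Susd4, a membrane protein with complement control domains, was at 103, 111 and 114 CPM in the CCI and at 135, 131 and 147 CPM in the sham libraries. Every CCI library was below every sham library, with a log2 fold change of −0.33 (unadjusted p = 0.00203, adjusted p = 0.169). Csmd1, another membrane protein of this kind, also had no overlap, at −0.15 (unadjusted p = 0.0235). None of these 3 reached the fold limit.

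Of the terminal pathway, whose products form the lytic pore, 7 of 8 names were found and 2 were tested. C7, which binds the forming pore to membranes, was at 58.7, 67.2 and 52.9 CPM in the CCI and at 46.3, 39.5 and 26.0 CPM in the sham libraries. All CCI libraries were above all sham libraries, sham 3 being the lowest. The log2 fold change of C7 was 0.68 (SE 0.21, unadjusted p = 0.0171, adjusted p = 0.337), and the call was lost without CCI 2 (0.58, unadjusted p = 0.0560) or sham 3 (0.47, unadjusted p = 0.0136). C8g, which encodes a chain of C8, was not called at −0.04. C5, C6, C8a and C8b were below the expression filter, and C9 had no read in any library.

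The C1q-like genes encode secreted proteins that share the globular domain of C1q and are known as organisers of synapses rather than as complement. Of 8 names all were found, 3 were tested and 1 was called higher, against 2.57% of all tested rows. Cbln2 was at 90.4, 75.1 and 62.6 CPM in the CCI and at 38.5, 47.8 and 43.8 CPM in the sham libraries. The groups were well apart, with a log2 fold change of 0.81 (SE 0.15, unadjusted p = 0.0012, adjusted p = 0.138). Cbln4 went the other way, at 6.08, 6.84 and 6.99 CPM against 8.43, 8.996 and 8.01 CPM, with a log2 fold change of −0.35 (unadjusted p = 0.0201) that did not reach the fold limit.

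Over all 6 lists, 62 names other than the 9 genes were sought and 57 found. Of these, 36 were tested, 4 were called higher (C7, Itgax, Itgb2 and Cbln2), against 2.57% of all tested rows, and 0 lower, against 1.26%, and edgeR called 0 at an adjusted p under 0.05. Itgax was among the tested names only through its level in the CCI group, as given above. The 36 names lie on 35 rows, because Cd46 and Cr1l share a row, and the row of Cfb is that of C2 described above. Groups did not overlap for 6, with CCI higher, against 8.63% of all tested rows, and for 3, with CCI lower, against 8.7%. Their median log2 fold change was 0.00083, close to that of all rows.

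**Figure D3:**
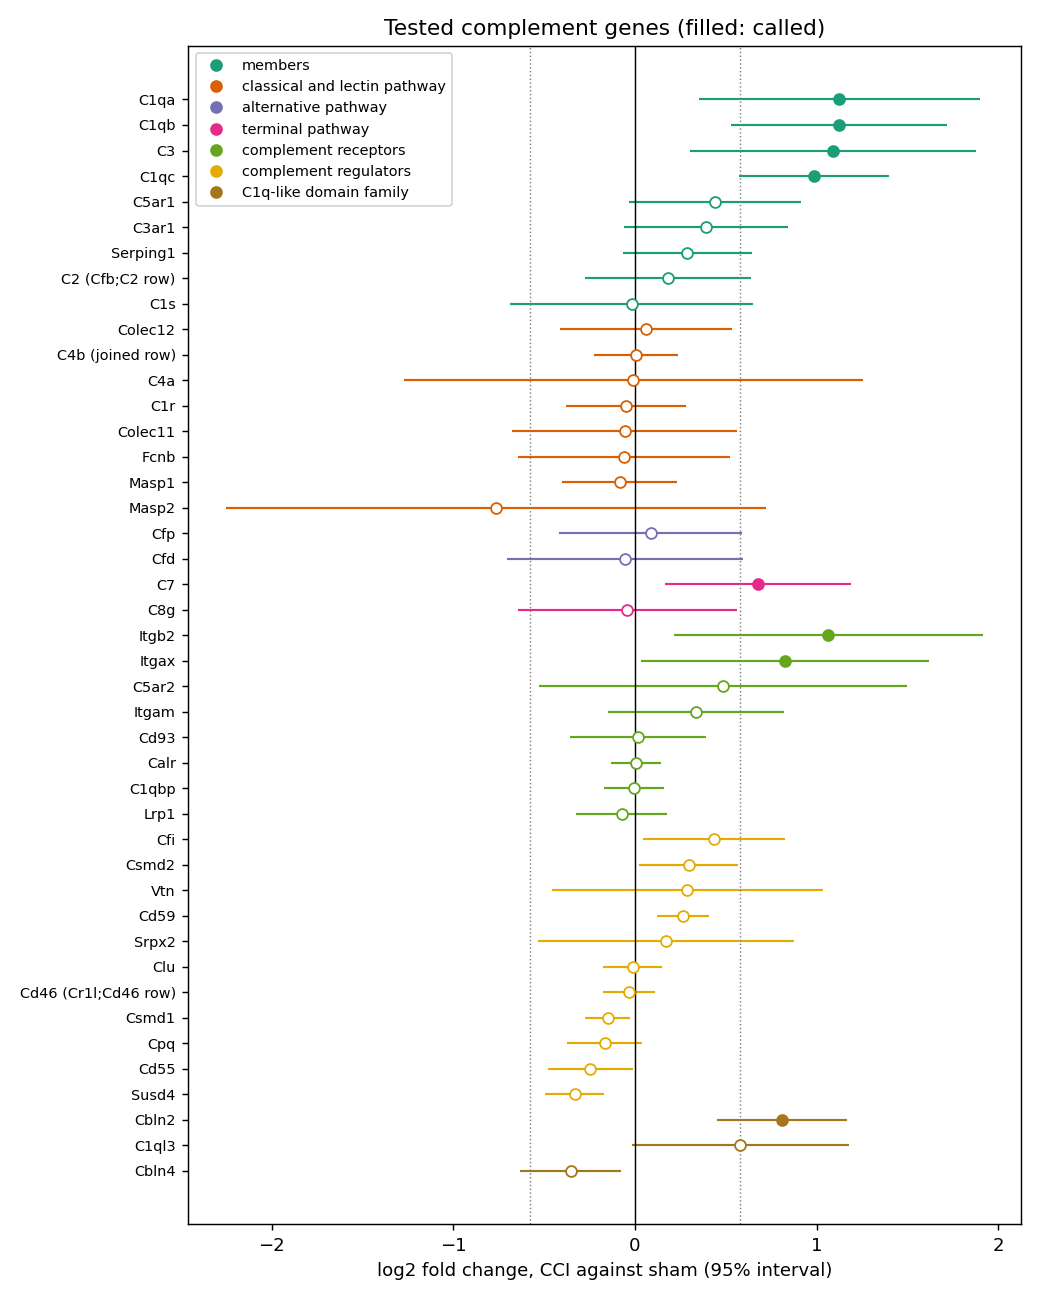
Fitted log2 fold change of CCI over sham (x axis) with its 95% interval for each tested complement gene, coloured by list, filled where called, with dotted lines at the fold limit of 0.58 on either side. The C1q genes and C3 are at 0.98 to 1.13, while C1r, C1s, C4a and C4b lie between −0.05 and 0.01.

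Per length, the 9 genes spanned a wide range of levels. In the sham group Serping1 was highest at 30.3 ± 4.46 FPKM, followed by C1s at 15.5 ± 2.15 and C1qc at 8.22 ± 0.647 FPKM (SD, n = 3). C1qb and C1qa followed at 4.64 ± 0.595 and 4.59 ± 1.66 FPKM and overlapped each other. C2 was at 2.93 ± 0.166 FPKM, and C5ar1, C3 and C3ar1 ended the order at 1.31 ± 0.201, 1.06 ± 0.414 and 0.913 ± 0.165 FPKM, each overlapping the next. In the CCI group C1qc, at 16.5 ± 3.59 FPKM, stood beside C1s at 15.5 ± 5.65 FPKM, and the ranges of these 2 genes overlapped, as did those of C1s and C1qb. C3, at 2.30 ± 0.608 FPKM, now lay above C5ar1 at 1.79 ± 0.315 FPKM, with overlapping ranges. Serping1 remained first at 37.4 ± 6.15 FPKM and C3ar1 last at 1.21 ± 0.0793 FPKM.

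Some macrophage markers were also higher in the CCI group. Of 12 such markers all were tested, 6 were called higher (Cd68, Csf1r, Cx3cr1, Tyrobp, Ctss and Fcgr1a) and 0 lower, against 2.57% and 1.26% of all tested rows, none had a count of 0, and their median log2 fold change was 0.55. The others were not called, and Adgre1, Cd163 and Trem2 had log2 fold changes of 0.02, −0.0033 and 0.06. The summed level of the 12 was 58.3, 49.9 and 45.3 FPKM in CCI 1, 2 and 3. Within the CCI group the C1q genes and the summed nerve injury genes given below had this order too, and C3 did not. In sham 1, 2 and 3 the macrophage sum was 29.6, 30.4 and 34.1 FPKM, an order shared by C1qa, C1qb and C3 but not by C1qc. Divided by this sum, C1qc was at 34.7%, 32.3% and 28.7% in CCI 1, 2 and 3 and at 26.7%, 25.6% and 26.3% in sham 1, 2 and 3. These groups still did not overlap, with a log2 difference of 0.28 (exact two-sided permutation p = 0.1). With Csf1r alone, the receptor that sustains macrophages, as the denominator they did overlap (log2 difference 0.21, exact p = 0.2). C1qb was at 22.2%, 21.8% and 15.2% against 13.9%, 14.9% and 15.5%, and C1qa at 22.5%, 20.1% and 16.2% against 10.6%, 13.9% and 18.8%. Both overlapped, with log2 differences of 0.40 and 0.47 (exact p = 0.2 each).

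C3 per macrophage marker level also overlapped between the groups, at 3.21% to 5.99% in the CCI and 2.46% to 4.47% in the sham libraries (log2 difference 0.44, exact p = 0.3). The receptors C3ar1 and C5ar1 had log2 differences of −0.28 and −0.24 on this scale (exact p = 0.4 and p = 0.5), the opposite sign to their fold changes in CPM. C2 was at 4.16%, 8.36% and 7.71% in the CCI libraries, below the 8.96% to 10.1% of the sham libraries, with a log2 difference of −0.53 (exact p = 0.1). After adjustment over the 33 ratios no value was below 0.275. The part of macrophage number in these results was not tested.

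Fibroblast markers, by contrast, were uncalled in 4 of 4 tested, and their sum was 276, 480 and 428 FPKM in CCI 1, 2 and 3 and 434, 407 and 411 FPKM in sham 1, 2 and 3. Within the CCI group, CCI 1 also had the lowest CPM of C1s, C2, C4a and Serping1, and of C1r and C3ar1 among others. Over all 6 libraries CCI 1 was not the lowest for Serping1 or C3ar1. Divided by the fibroblast marker sum, a scale chosen after the values were seen, C1s was at 3.29%, 4.12% and 4.11% against 3.84%, 4.14% and 3.17% (log2 difference 0.05, exact p = 0.7). Serping1 on this scale was at 10.997%, 8.73% and 9.29% against 8.15%, 6.96% and 6.59%, and C2 at 0.877%, 0.870% and 0.815% against 0.688%, 0.674% and 0.744%. Neither overlapped, with log2 differences of 0.42 and 0.28 (exact p = 0.1 each). C1qa, C1qb, C1qc, C3ar1 and C5ar1 did not overlap on this scale either, with log2 differences of 0.54 to 1.29 (exact p = 0.1 each). Only C1s and C3 overlapped. The share of all tested rows without overlap on this scale was not computed, so these counts have no background. The low fibroblast sum of CCI 1 raises the CCI 1 value of every gene on this scale, and Serping1 and C2 overlapped in CPM. The part of fibroblast content was not tested.

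**Figure D4:**
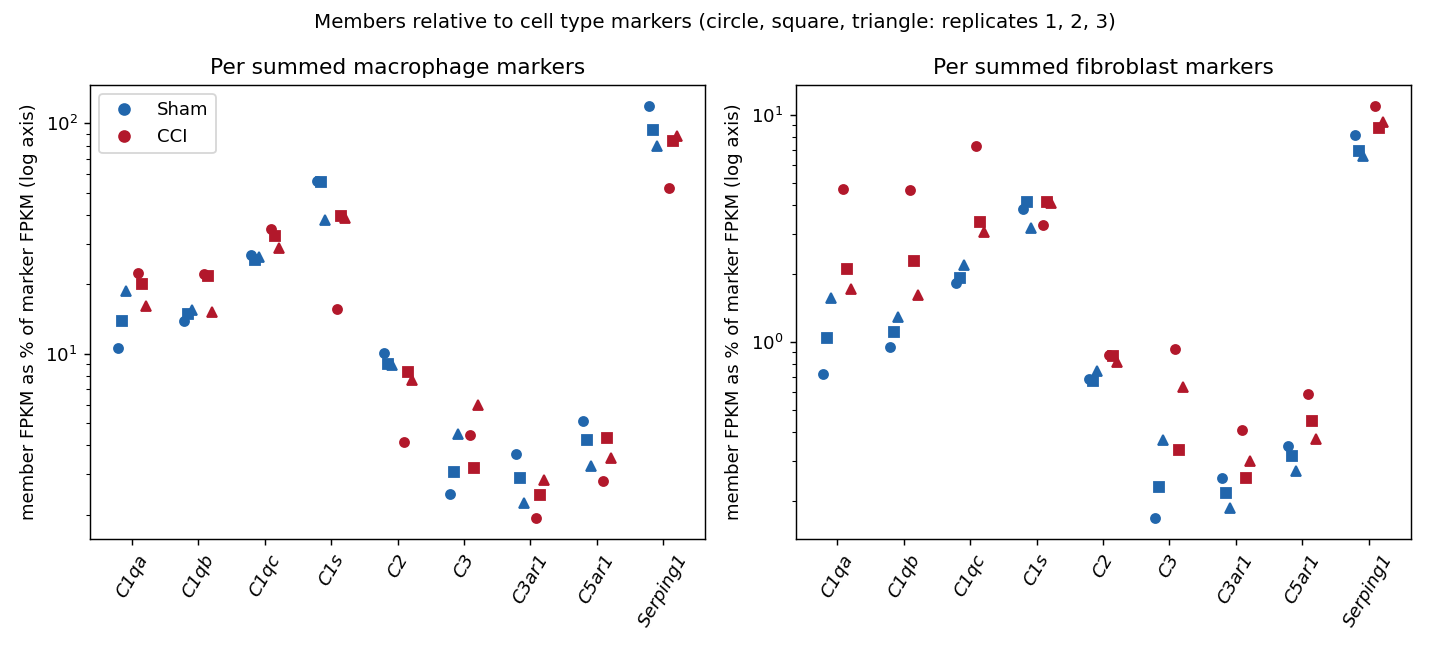
FPKM of each complement gene as a percentage of the summed FPKM of 12 macrophage markers (left) or 4 fibroblast markers (right) on log axes, with blue for sham, red for CCI and circle, square and triangle for replicates 1, 2 and 3. On the macrophage scale C1qc keeps the groups apart and C2 is lower in the CCI libraries, and on the fibroblast scale the CCI 1 circle of C1s lies at 3.29%, next to the 3.17% of sham 3.

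Markers of other cell types gave these values. Of 5 neutrophil markers tested 0 were called, with sums of 12.01 to 17.2 FPKM in the CCI and 9.19 to 32.7 FPKM in the sham libraries, the highest in sham 1. T cell and B cell markers were all below the filter, with sums of 0.294 to 0.499 and 0.492 to 1.27 FPKM over all libraries. Of 6 hepatocyte markers 2 were tested and both were called higher, against 2.57% of all tested rows. These were Serpina1 (log2 fold change 1.54, unadjusted p = 0.000614) and Apoh (0.76, unadjusted p = 0.0347). Their list summed to 6.11 to 10.6 FPKM in the CCI and 2.89 to 3.99 FPKM in the sham libraries. Most of this was Serpina1, with a mean of 7.23 of 8.58 FPKM in the CCI and 2.45 of 3.54 FPKM in the sham group. Albumin (Alb) had 0, 4 and 0 reads in the CCI and 0, 36 and 3 in the sham libraries. Apoa1, Ttr and Fgb, like Alb, were below the filter. The part of hepatocyte RNA in the complement values was not tested. Of 3 tested endothelium markers, 6 satellite glia markers and 6 Schwann cell markers 0 were called. Cldn5 of the endothelium list had no read in any library, while Cdh5 averaged 5.39 FPKM in the CCI and 5.97 FPKM in the sham group. Whether the Cldn5 row missed reads was not tested. Of 4 tested erythrocyte markers 0 were called, with sums of 62.3 to 123 FPKM against 95.3 to 225 FPKM. Of 6 skeletal muscle markers 4 were called lower, against 1.26% of all tested rows, with the high value of sham 1 given above. The 6 nerve injury genes (Atf3, Sox11, Gal, Sprr1a, Jun and Gap43) were all called higher, against 2.57% of all tested rows. Their sums were 201 to 340 FPKM in the CCI and 82.8 to 90.6 FPKM in the sham libraries. Sprr1a passed the expression filter only through the CCI group, and Tnni2 of the muscle list only through the sham group.

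The calls of C1qa, C1qb, C1qc and C3 each held in all 6 fits that left out 1 library. Log2 fold changes ranged from 0.90 to 1.45 for C1qa, 0.92 to 1.34 for C1qb, 0.81 to 1.13 for C1qc and 0.88 to 1.45 for C3. Leaving out CCI 1 gave the lowest value for each C1q gene, and leaving out sham 1 gave it for C3. Without CCI 1 and sham 1 together C1qb and C1qc kept their calls, while C1qa (0.68, unadjusted p = 0.0668) and C3 (0.78, unadjusted p = 0.0904) lost them.

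**Figure D5:**
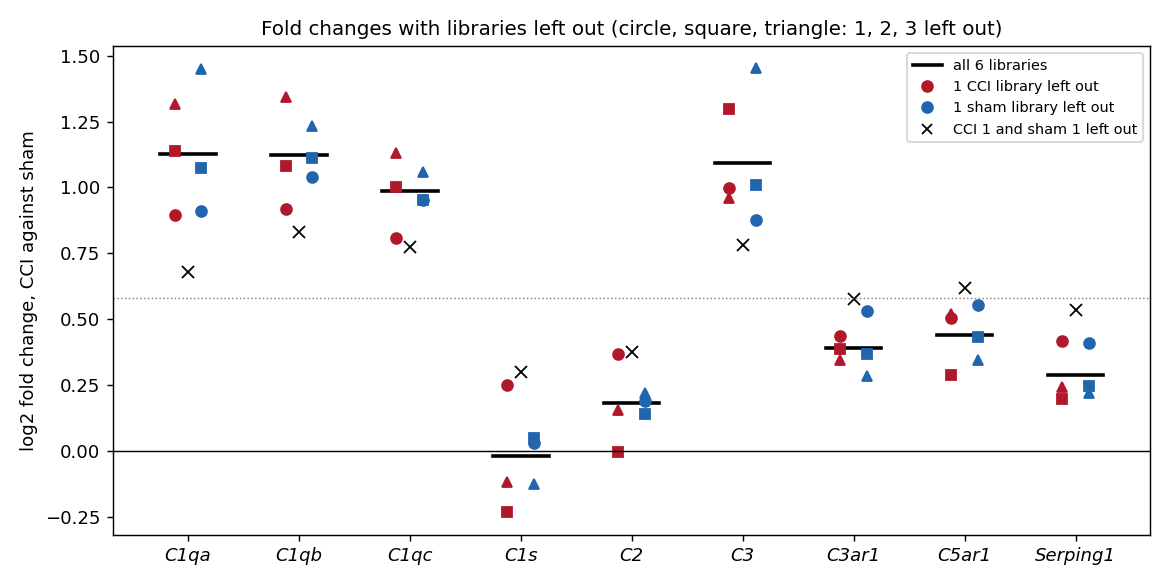
Log2 fold change of CCI over sham (y axis) for each complement gene with all 6 libraries (black bar), with 1 CCI (red) or 1 sham (blue) library left out (circle, square and triangle for replicates 1, 2 and 3) and with CCI 1 and sham 1 left out together (cross). The dotted line is the fold limit of 0.58. C1qa, C1qb, C1qc and C3 stay above it in every fit, whereas C1s runs from −0.23 to 0.30.

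Across the 6 libraries, the rows most like 3 chosen profiles were sought among 12005 protein-coding rows. The chosen profiles were the mean of the C1q genes, C3, and Serping1, which was not called. This is a description without a test, since all points come from the same 6 libraries and share their group structure. The mean standardised profile of the C1q genes was nearest to Rras2 and Ifngr1 (Pearson r = 0.998 each), Pcnx1 (0.997), Tpbg and Dcaf15 (0.995 each). C3 was nearest to Slx4 (0.995), Me3 (0.994), AABR07017241 and Them4 (0.991 each) and Chrm3 (0.988). Serping1 was nearest to Cp, which encodes ceruloplasmin (0.990), Phyhd1 (0.985), Zfp821 (0.984), Cdc42 and Wdr60 (0.981 each). No gene stood in more than 1 of these lists, and none of them was on a complement list.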

How the data were processed

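Total RNA depleted of ribosomal RNA was sequenced in paired ends. The authors mapped reads to a rat genome that the study's methods name V101, and the submitters' processing notes list HISAT2 2.0 and StringTie 1.3.0. They deposited whole-number read counts per gene row and FPKM values made from them. Library preparation marked strand, but whether counting used it is not given in the sources used here, so overlapping and joined rows are less certain.

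Counts were fitted with edgeR 4.0.16 (TMM factors 0.988 to 1.01, quasi-likelihood test, trended prior with 2.52 prior degrees of freedom, no covariate) in R 4.3.3 on 26663 rows, those averaging 0.5 FPKM or more. The step was tested on counts simulated from the averages and trended spread of the same data, which checks the code and not the results. The p-values measure the spread between rats. Members and lists were chosen with earlier results of these data known. Named genes were the 9 members, list genes called or not overlapping, a few list and neighbouring genes for context, and the 5 nearest profiles. A gene left out of the lists is not reported here. Ratios were tested by exact permutation. Alternatives were DESeq2 1.42.0, its size factors in edgeR, other filters, limma 3.58.1 on log2(FPKM + 0.1) or log2(FPKM + 1), no prior trend, protein-coding rows, a replicate block and left-out libraries. Rows without a symbol, 6849, stayed in the fit. Figures were drawn with matplotlib 3.10.9.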

Additional observations from a re-analysis of the deposited data

How the results depend on the processing

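The 4 member calls held in 15 of the 16 alternatives, the exception being the fit without CCI 1 and sham 1, which left 2. DESeq2 called 4 members at an adjusted p under 0.05, where the other alternatives called 0. The median log2 fold change of the members was 0.29 with limma on log2(FPKM + 1), 0.62 without CCI 1 and sham 1 (chosen after seeing the data), and 0.34 to 0.55 with 1 library left out. Other complement genes called higher numbered 2 with limma on log2(FPKM + 1), 2 with the replicate block, and 1 to 5 with 1 library left out. Without a filter, 1 (C1ql2, otherwise below the expression limit) was called lower. Over all rows, 400 were higher and 150 lower with limma on log2(FPKM + 1), and 353 and 115 with protein-coding rows only, for which fewer rows were tested. With 1 library left out these were 562 to 767 and 312 to 421.

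Some uncalled values near 0 changed sign. C1s ranged from −0.23 to 0.25 with 1 library left out and was 0.30 without CCI 1 and sham 1, C1r from −0.21 to 0.07 and 0.089, and C4a from −0.30 to 0.43 and 0.41. C2 ranged from −0.0031 to 0.37 and was 0.38 without both. C4b ranged from −0.082 to 0.093 and was −0.0016 with the replicate block. The cause was not tested in any of these.

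Samples of the 2 groups share replicate numbers but no stated pairing. Deviations of same-numbered samples correlated at −0.011, −0.022 and −0.055, and those of differently numbered samples at −0.015 to 0.037. No shared deviation by number was seen, but 3 libraries per group cannot exclude a pairing. With the replicate block 4 members were called higher and 0 at an adjusted p under 0.05, and over all rows 617 were higher and 318 lower. The ratios to macrophage markers were not recomputed with a library left out, and with Csf1r alone each kept its direction. Itgax, under the mean FPKM limit of 1, has no value with that filter. Depth did not limit the 9 genes, whose lowest count was 143 reads.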
